A study of Bos taurus with 12 samples.

Results

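The genes described here carry the Notch signal between neighbouring cells: the ligands JAG1 and JAG2, the receptors NOTCH1, NOTCH2 and NOTCH3, the fringe enzyme LFNG, and the target genes HES1, HEY1, HEY2 and HEYL. They were chosen by symbol, as the probes whose platform annotation names 1 of these 10 genes. The array held 16 such probes for 9 of the 10 genes, among 43794 probes in all, and no probe carried the symbol NOTCH3. A low-signal filter kept 13 of the 16 probes, with at least 1 for each of the 9 genes, and 35891 of the 43794 probes.

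The samples were cow cumulus cells, which enclose the oocyte within the follicle, taken from complexes collected from ovaries of a slaughterhouse. Each sample's stage is that of the enclosed oocyte, whose chromatin was read after Hoechst staining as GV0, GV1, GV2 or GV3, which follow each other from the least to the most condensed germinal vesicle chromatin. Each array compared 2 pools of RNA, each drawn from the cells of 10 complexes of 1 stage and amplified through 2 rounds of T7 transcription. GV1, GV2 or GV3 RNA was in the Cy5 channel, on 4 arrays each, and GV0 RNA was in the Cy3 channel of all 12 arrays. The comparisons therefore ask how the cumulus transcriptome differs between the early GV0 configuration and each later one.

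In Notch signalling a Jagged or Delta ligand on one cell binds a Notch receptor on its neighbour, the receptor is cleaved, and its intracellular part joins RBPJ in the nucleus to turn on repressors of the HES and HEY families. Fringe enzymes such as LFNG add sugars to the receptor and change which ligands it answers. In the rodent ovary, oocytes express Jagged1 and granulosa cells express Notch2, and the pathway takes part in the formation and growth of follicles.

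The granulosa and cumulus markers were detected, which by itself does not tell cell types apart. All 15 listed markers were measured, and 13 lay above the negative controls on all 12 arrays in Cy5 and 13 in Cy3. In each channel so did 7 of 10 pericyte and smooth muscle, 4 of 7 theca and stroma and 5 of 10 oocyte markers. Of 7 leukocyte markers 2 did so in Cy5 and 3 in Cy3, and of 11 endothelial markers 5 in Cy5 and 6 in Cy3. The median spot signal was 131.8 to 230.5 for Cy5 and 276.5 to 372.7 for Cy3, and 59.9% to 83.6% of spots in Cy5 lay above the negative controls. The array of GV1 replicate 3 stood apart in its theca and stroma markers. Their mean log2 ratio was 2.21 on that array and between -0.26 and 0.06 on the other 11. No spot of the 16 Notch probes was flagged.

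HES1 was the member whose brightest probe passed the test. Its signal was lower in cumulus cells of GV1, GV2 and GV3 oocytes than in those of GV0 oocytes, at 0.750, 0.755 and 0.700 of the GV0 level. The ligands, the receptors, LFNG and the 3 HEY genes did not pass with their brightest probes. HES1 kept within a band from -0.67 to -0.28 on all 12 arrays, while the ratios of JAG1, HEY1 and HEY2, among others, lay on both sides of 0.

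HES1 encodes a basic helix-loop-helix repressor and is a standard direct target of Notch. Its log2 ratios to GV0 were -0.38, -0.36, -0.50 and -0.42 on the 4 GV1 arrays. On the GV2 arrays they were -0.28, -0.42, -0.58 and -0.34, and on the GV3 arrays they were -0.41, -0.53, -0.67 and -0.45. All 12 values lay below 0, which 7.24% of the 13418 measured genes did. The mean log2 ratio was -0.41 in GV1, -0.40 in GV2 and -0.52 in GV3, each with an SE of 0.062 (n = 4 arrays). The limma model over all kept probes gave Benjamini-Hochberg adjusted p = 0.00319, 0.00338 and 0.000951.

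HES1 was thus 1 of 9 members called, and called lower, in each comparison with GV0. Over all measured genes 9.63% were called in GV1, 10.5% in GV2 and 11.1% in GV3. Those called lower were 5.78%, 5.84% and 6.78%, and 3.22% of genes were called lower in all 3 comparisons. At an unadjusted p under 0.05 the count of members was 5 in GV1, 1 in GV2 and 1 in GV3, beside 25.4%, 26.0% and 27.0% of all genes. The median log2 ratio of the 9 members was -0.09, -0.16 and -0.19, and that of all genes was 0.00, 0.00 and -0.01. Of the 13 kept probes, 1 was called in GV1, 3 in GV2 and 1 in GV3, beside 11.0%, 12.0% and 12.3% of all probes. The 3 comparisons share GV0 as their reference, and may share its pools, so they are not separate evidence.

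In channel levels, normalised across the 12 arrays on the log2 scale, HES1 stood at 8.18 ± 0.12 in GV0 (SD over 4 area means), 7.77 ± 0.20 in GV2, 7.74 ± 0.19 in GV3 and 7.68 ± 0.15 in GV1 (SD, n = 4). The highest Cy5 value was 8.02, on an area 1 array of GV2, and the lowest GV0 area mean was 8.06. The GV0 area means did not overlap the later stages, although single Cy3 values reached down to 7.99, while the 3 later stages overlapped each other. The uncorrected spot signals were modest, 192 to 277 for Cy5 and 394 to 554 for Cy3, and the probe ranked at the 61.8th percentile of brightness among kept probes. GV0 was labelled with Cy3 on every array, so a dye preference of this probe and a higher HES1 level in GV0 cannot be told apart in these ratios. In bulk pools, fewer cells of a type and less RNA per cell cannot be told apart either.

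The HES1 call did not hold under every way of reading the spots. With the median in place of the mean spot signal the adjusted p was 0.296 in GV1, 0.324 in GV2 and 0.154 in GV3. Some markers of endothelial cells, another cell type with strong Notch activity, moved slightly in the same direction, while ENG lay at 0.06, 0.05 and 0.05. Of 11 measured endothelial markers, 3 were called lower in GV1, 3 in GV2 and 2 in GV3, and none was called higher. Over all genes 5.78%, 5.84% and 6.78% were called lower. Of those called, TIE1 was above the negative controls in Cy5 on 7 of 12 arrays, and ESAM and EGFL7 on all 12. Of 10 pericyte and smooth muscle markers, 2 were called higher in GV2, none in GV1 or GV3, and none was called lower. The summed Cy5 level of the endothelial markers was 1633.7 to 1772.2 in GV1, 1614.8 to 1821.3 in GV2 and 1637 to 1714.7 in GV3. Their summed Cy3 level was 1792.3 to 2066, which the GV2 range overlaps. Their part in the HES1 difference was not tested.

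**Figure D1:**
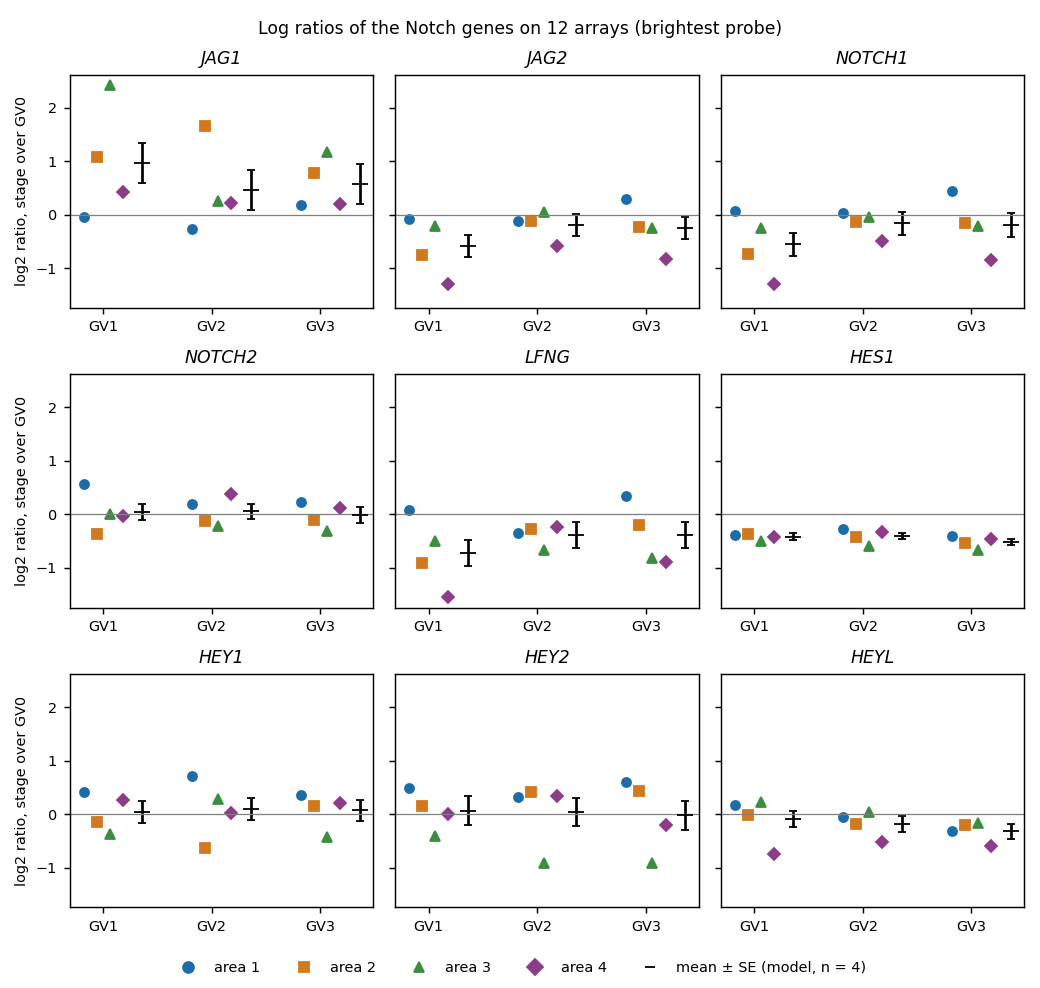
Log2 ratios of stage RNA over GV0 RNA (y axis) for the brightest probe of each of the 9 measured genes, by stage (x axis). Symbols mark the area number of the array and black bars the model mean ± SE (n = 4 arrays); all 12 HES1 points lie below 0, between -0.67 and -0.28, while JAG1 spreads from -0.27 to 2.42.

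Among the other targets, HEY1 and HEY2, repressors of the same superfamily that act downstream of Notch in the vessel wall and heart, varied around 0. HEY1 ratios were 0.41, -0.14, -0.37 and 0.27 in GV1, 0.70, -0.64, 0.28 and 0.02 in GV2, and 0.35, 0.15, -0.43 and 0.20 in GV3. HEY2 ratios were 0.50, 0.16, -0.41 and 0.00 in GV1, 0.32, 0.42, -0.91 and 0.34 in GV2, and 0.60, 0.43, -0.92 and -0.20 in GV3. The area 3 array was the lowest for HEY2 in every stage. The means were 0.04, 0.09 and 0.07 for HEY1 (SE 0.201) and 0.06, 0.04 and -0.03 for HEY2 (SE 0.267). With limma the adjusted p lay between 0.814 and 0.964 for both genes in all 3 comparisons. A second HEY2 probe was above the negative controls on 1 array in Cy5 and on none in Cy3, and was left out by the filter.

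HEYL, the remaining HEY gene, gave ratios of 0.17, -0.01, 0.22 and -0.74 in GV1. The GV2 ratios were -0.06, -0.18, 0.04 and -0.52. In GV3 all 4 lay below 0, at -0.31, -0.21, -0.17 and -0.60. The area 4 array was the lowest in each stage. The means were -0.09, -0.18 and -0.32 (SE 0.147), and the limma adjusted p was 0.748, 0.470 and 0.179. With the area number as a replicate block the GV3 difference passed, with an SE of 0.074 and an adjusted p of 0.0117, but not with the area number as a random effect (SE 0.127, adjusted p = 0.123). The probe was dim, at the 34.2th percentile, and its Cy5 signal lay above the negative controls on only 2 of the 4 GV3 arrays.

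The ligand JAG1 showed the largest mean ratios and the widest spread of the set. The ratios of its brightest probe were -0.04, 1.08, 2.42 and 0.42 in GV1, -0.27, 1.65, 0.26 and 0.21 in GV2, and 0.17, 0.78, 1.17 and 0.19 in GV3. The area 1 array was the lowest in each stage, and 10 of 12 arrays lay above 0. The means were 0.97, 0.46 and 0.58 (SE 0.379), and none passed in limma (adjusted p = 0.124, 0.469 and 0.353). The probe was near background: its Cy5 signal lay above the negative controls on 9 of 12 arrays and its Cy3 signal, from GV0, on 4 of 12.

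The highest JAG1 value, 2.42, fell on the array of GV1 replicate 3, where the 7 measured theca and stroma markers averaged 2.21. Their summed Cy5 level there was 26356, against 2281 to 2908 in GV2, 2452 to 2577 in GV3 and 2299 to 3062 in the GV0 channel. COL3A1 reached 6.67, PDGFRA 3.84, LUM 2.54, DCN 1.38 and COL1A1 1.34 on that array. CYP17A1, the steroidogenic enzyme that defines theca cells, was at -0.21 and INSL3 at -0.07. The part of such cells in the JAG1 value was not tested. Without that array the mean JAG1 ratio in GV1 was 0.49 with an adjusted p of 0.423. With the area number as a replicate block JAG1 passed in GV1 at an adjusted p of 0.0233 on all arrays, and not without that array, at 0.55 and adjusted p = 0.118. On the GV2 array with the second highest JAG1 value, 1.65, the theca and stroma mean was 0.02.

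The second kept JAG1 probe did not follow the first. Its ratios were 0.19, 0.13, 0.02 and 0.53 in GV1, 0.46, 0.06, 0.35 and 0.30 in GV2, and 0.22, 0.05, 0.19 and 0.29 in GV3. All 12 were above 0, which 5.15% of genes were. The means were 0.22, 0.29 and 0.19 (SE 0.086), and GV2 passed narrowly in limma, with adjusted p = 0.128, 0.0498 and 0.179. The GV2 call was kept under 6 of 25 alternatives, and in the deposited log ratios the GV2 value was -0.091. Over the 12 arrays its correlation with the brighter probe was r = -0.706, a description over arrays that may share GV0 pools. This probe was dimmer still, at the 7.5th percentile, with GV0 above the negative controls on 3 of 12 arrays. The remaining JAG1 probe was above them on 1 array in each channel and was left out. The sign of JAG1 relative to GV0 was the same for both kept probes in every stage, but the level was close to background for each.

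**Figure D2:**
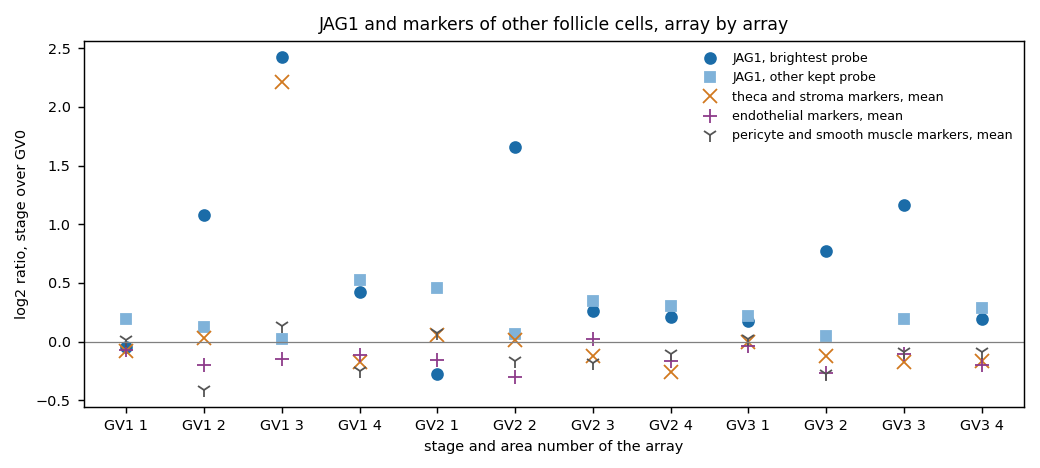
Log2 ratios of the 2 kept JAG1 probes and the mean log2 ratios of 3 marker lists (y axis) on each of the 12 arrays (x axis: stage and area number). On the array of GV1 replicate 3 JAG1 is at 2.42 and the theca and stroma mean at 2.21; on the other 11 arrays that mean stays between -0.26 and 0.06.

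JAG2, the other Jagged ligand, was bright with 1 of its 3 kept probes and dim with the others. The brightest gave ratios of -0.09, -0.75, -0.20 and -1.30 in GV1, -0.12, -0.11, 0.05 and -0.58 in GV2, and 0.29, -0.23, -0.24 and -0.84 in GV3. The area 4 array was the lowest in each stage. The means were -0.58, -0.19 and -0.25 (SE 0.206), with limma adjusted p = 0.0933, 0.597 and 0.462. With the replicate block the GV1 difference passed, with an SE of 0.101 and an adjusted p of 0.00406, but not with the area number as a random effect (SE 0.177, adjusted p = 0.0606). Without GV1 replicate 4 the GV1 mean was -0.35 (adjusted p = 0.365 without the block).

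The other JAG2 probes gave smaller values that did not agree in sign. One averaged -0.20, -0.26 and -0.04 (SE 0.070) and passed in GV2 alone, at limma adjusted p = 0.0364, with all 4 GV2 arrays below 0 at -0.20, -0.23, -0.10 and -0.52. It passed in GV2 under 12 of 27 alternatives, and in GV1 as well with the replicate block, at an adjusted p of 0.0226. The other averaged 0.14, 0.08 and 0.14 (SE 0.075) and did not pass. Across the 12 arrays the brightest probe correlated with these at r = 0.567 and r = -0.664. The 3 probes thus gave no single direction for JAG2.

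NOTCH1, the receptor, followed JAG2 closely on its brightest probe. The ratios were 0.06, -0.74, -0.25 and -1.29 in GV1, 0.04, -0.15, -0.05 and -0.49 in GV2, and 0.45, -0.15, -0.21 and -0.84 in GV3. Again the area 4 array was the lowest in each stage. The means were -0.55, -0.16 and -0.19 (SE 0.219), with limma adjusted p = 0.128, 0.681 and 0.622, and the GV1 difference passed with the replicate block (SE 0.101, adjusted p = 0.00514) but not with the random effect (SE 0.185, adjusted p = 0.0819). Without GV1 replicate 4 the GV1 mean was -0.31 (adjusted p = 0.465 without the block). The other kept NOTCH1 probe was dim and stayed near 0, with means of -0.01, -0.12 and -0.01, and correlated with the brightest at r = -0.182. Its remaining probe never rose above the negative controls. The likeness of the brightest probes of NOTCH1 and JAG2 was not particular to the pathway. PTPRC, a leukocyte marker outside it, ran much the same way, at -0.02, -0.66, -0.06 and -1.24 in GV1. The PTPRC ratios were -0.16, -0.24, 0.11 and -0.70 in GV2, and 0.46, -0.14, -0.075 and -0.79 in GV3. PTPRC does not stand for its list. Of the 7 measured leukocyte markers, 2 were called higher in GV1, 1 in GV2 and 1 in GV3, and 0 lower. NR5A2, a granulosa marker, was also lowest on the area 4 array in each stage, at -1.37, -0.48 and -0.87. What these genes have in common was not tested.

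NOTCH2, the receptor of granulosa cells in the rodent ovary, was bright, at the 96.9th percentile, and its differences did not pass the test. Its ratios were 0.56, -0.37, 0.01 and -0.03 in GV1, 0.19, -0.13, -0.22 and 0.39 in GV2, and 0.22, -0.10, -0.31 and 0.13 in GV3. The means were 0.04, 0.06 and -0.01 (SE 0.145), with limma adjusted p = 0.884, 0.841 and 0.961. The area 1 array lay above 0 in each stage and the area 2 array below it.

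LFNG, the lunatic fringe enzyme, was the brightest member, at the 97.5th percentile. Its ratios were 0.09, -0.91, -0.49 and -1.54 in GV1, -0.34, -0.27, -0.67 and -0.24 in GV2, and 0.35, -0.21, -0.81 and -0.89 in GV3. Of the 12 arrays 10 lay below 0, and both exceptions were area 1 arrays. The means were -0.71, -0.38 and -0.39 (SE 0.245), and the limma adjusted p was 0.0848, 0.348 and 0.330. The GV1 difference passed with the replicate block (SE 0.185, adjusted p = 0.0209) but not with the random effect (adjusted p = 0.10). Without the block, leaving out 1 GV1 array moved it from -0.98 (without replicate 1, adjusted p = 0.0414) to -0.44 (without replicate 4, adjusted p = 0.34).

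With the replicate block, 5 members were called in GV1 (JAG1, JAG2, NOTCH1, HES1 and LFNG), 1 in GV2 (HES1) and 2 in GV3 (HES1 and HEYL). The share of all genes called under that model was 30.1%, 30.0% and 31.1%. Its SE leaves out differences between areas, so its calls against GV0 speak for these 4 areas only. At an unadjusted p under 0.05 that model counted 5, 2 and 3 members, beside 42.6%, 42.6% and 43.8% of genes. HES1 had adjusted p = 0.000709, 0.000654 and 0.000202. With the area number as a random effect, with an estimated correlation of 0.466 within areas, HES1 was the 1 member called in each of the 3 comparisons, and JAG1 in GV1 had an adjusted p of 0.125. Without GV1 replicate 3 the block left 4 members in GV1, with JAG1 no longer among them.

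The GV0 channel shows how far the levels of 1 stage differed between areas and between arrays. NOTCH1 in Cy3 averaged 11.09 on the area 1 arrays, 12.87 on area 2, 11.83 on area 3 and 13.63 on area 4, on the log2 scale. JAG2 averaged 10.54, 12.22, 11.12 and 13.28 in the same order. Both genes were thus highest in the GV0 channel of area 4, where their ratios to GV0 were the lowest. The GV0 level is part of the ratio, so the level and the ratio are not independent. In each later stage their Cy5 level was also highest on area 4. In GV1, GV2 and GV3 it was 12.41, 12.28 and 12.44 for JAG2 and 12.72, 12.76 and 12.78 for NOTCH1. LFNG averaged 12.62, 13.37, 13.44 and 13.98, and was lowest on area 1 and highest on area 4.

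The area means of NOTCH1 spanned 2.54 and those of JAG2 2.75. Arrays within 1 area spanned up to 2.45 for NOTCH1, 2.48 for JAG2 and 1.09 for JAG1. The spans of area means therefore cannot be read as differences between pools alone. On the area 1 array of GV2, NOTCH1 was at 9.58 in Cy3 and 9.62 in Cy5, and JAG2 at 8.96 and 8.83. NOTCH2 area means spanned 0.876, HEY2 0.945, HEYL 0.644, HEY1 0.435 and JAG1 0.871. HES1 spanned 0.278, the narrowest of the 9, with area means of 8.34, 8.06, 8.18 and 8.12. Over the 12 log ratios JAG2 and NOTCH1 correlated at r = 0.984, NOTCH1 and LFNG at 0.874, and JAG2 and LFNG at 0.818. HES1 and HEY2 correlated at 0.752. These are descriptions over arrays that may share GV0 pools within an area, and they were not set beside other gene pairs.

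**Figure D3:**
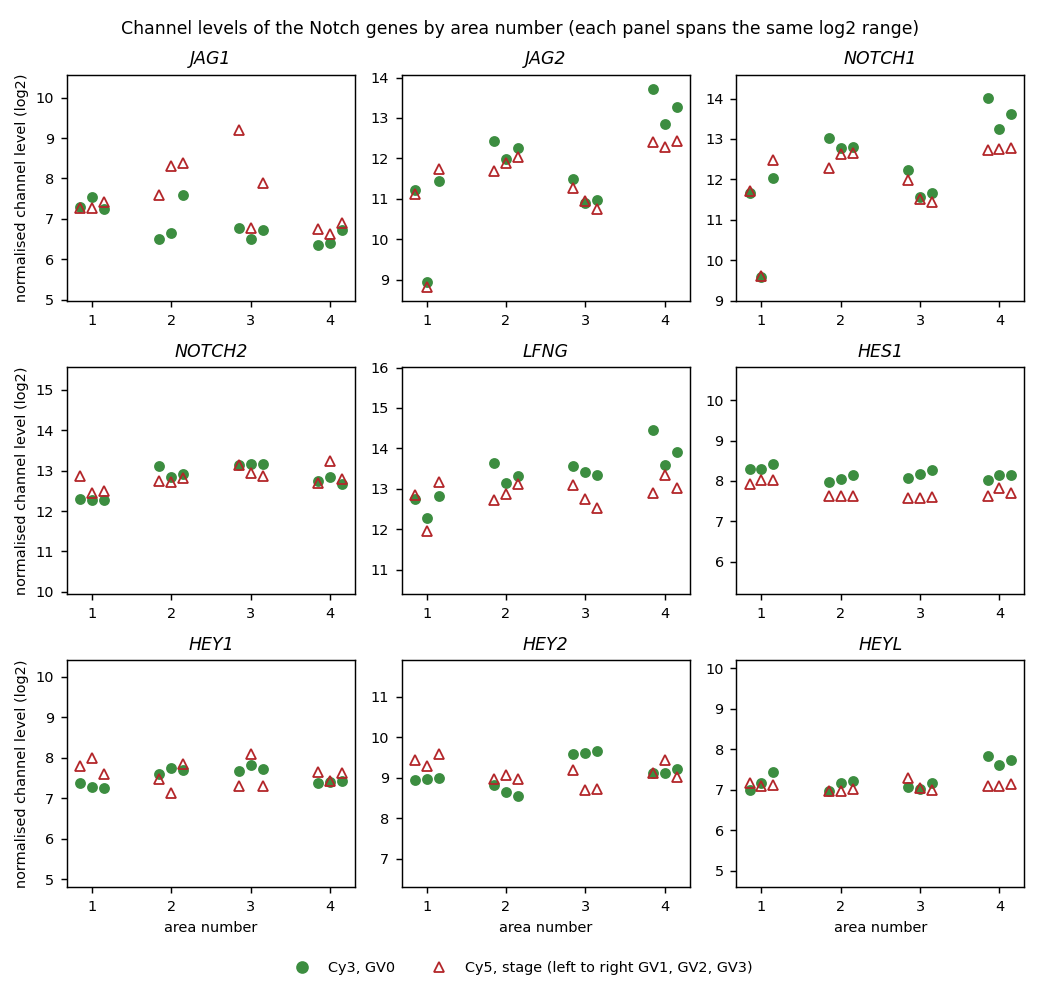
Normalised log2 channel levels (y axis) of the brightest probe of each gene by area number (x axis), GV0 in Cy3 as filled circles and the later stage in Cy5 as open triangles, each panel spanning the same log2 range. NOTCH1 and JAG2 area means span over 2 log2 units in the GV0 channel, with area 4 the highest, while HES1 area means span 0.278. The arrays of area 1 alone span 2.45 for NOTCH1 and 2.48 for JAG2.

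By level within each gene, JAG1 was ordered GV1 (7.70 ± 1.05), GV3 (7.65 ± 0.63), GV2 (7.24 ± 0.76) and GV0 (6.86 ± 0.38; SD, n = 4). JAG2 was ordered GV0 (11.79 ± 1.22), GV3 (11.73 ± 0.72), GV1 (11.63 ± 0.57) and GV2 (10.98 ± 1.54). NOTCH1 kept the same order as JAG2, from 12.35 ± 1.12 in GV0 to 11.63 ± 1.45 in GV2. The last place of GV2 rested on its area 1 array, a check chosen after seeing the data: without it GV2 averaged 11.70 for JAG2 and 12.30 for NOTCH1, above GV1 at 11.63 and 12.18. NOTCH2 lay between 12.74 ± 0.17 in GV3 and 12.87 ± 0.20 in GV1. LFNG was ordered from 13.36 ± 0.56 in GV0 through GV3 and GV1 to 12.73 ± 0.58 in GV2. HEY1 ranged from 7.53 ± 0.21 in GV0 to 7.66 ± 0.46 in GV2, HEY2 from 9.08 ± 0.36 in GV3 to 9.18 ± 0.19 in GV1, and HEYL from 7.05 ± 0.06 in GV2 to 7.28 ± 0.30 in GV0. Without the area 1 array of GV2, other places moved as well. LFNG in GV2 then averaged 12.99, above GV3 at 12.96 and GV1 at 12.89. NOTCH2 in GV2 averaged 12.96, above GV1 at 12.87. HEY1 in GV2 averaged 7.545, below GV3 at 7.596 and GV1 at 7.55. With all arrays, neighbouring stages in the order of each of these 8 genes overlapped in their single values. Levels are not compared between genes, since each comes from its own probe.

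Between the later stages a constant dye effect of a probe cancels, and so does the GV0 level if same-numbered arrays hold the same GV0 RNA. Their Cy3 profiles were closely alike, but no label states it. By its brightest probe, no member was called in any of the 3 comparisons, and none had an unadjusted p under 0.05 in limma. Of the other probes, 1 of JAG2 had an unadjusted p of 0.0475 in GV3 against GV2, at 0.22 (95% interval 0.003 to 0.44, higher in 4 of 4 areas), and an adjusted p of 1. Over all genes 0% were called, and 0.946%, 2.02% and 2.75% had an unadjusted p under 0.05 in GV2 against GV1, GV3 against GV1 and GV3 against GV2. With the replicate block 2, 2 and 0 members had an unadjusted p under 0.05, beside 4.14%, 8.50% and 10.7% of genes, and again none was called. Each stage lay under its own data number in the labels, so the data number and the stage cannot be told apart.

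The intervals of these differences show what the arrays could resolve under the main processing. HES1 differed by 0.01 (95% interval -0.18 to 0.20) in GV2 against GV1, by -0.10 (-0.29 to 0.09) in GV3 against GV1 and by -0.11 (-0.30 to 0.08) in GV3 against GV2. NOTCH2 differed by 0.01 (-0.44 to 0.47) in GV2 against GV1. JAG1, with the widest interval, differed by -0.51 (-1.69 to 0.68) in GV2 against GV1. In the same comparison the difference was 0.39 (-0.25 to 1.04) for JAG2, 0.39 (-0.29 to 1.08) for NOTCH1 and 0.33 (-0.43 to 1.10) for LFNG. HES1 had the narrowest interval of the 9 in each comparison. Its width depended on the spot signal used. In GV2 against GV1 the HES1 SE was 0.088 with mean and 0.196 with median spot signals. For NOTCH2 it was 0.205 and 0.239.

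**Figure D4:**
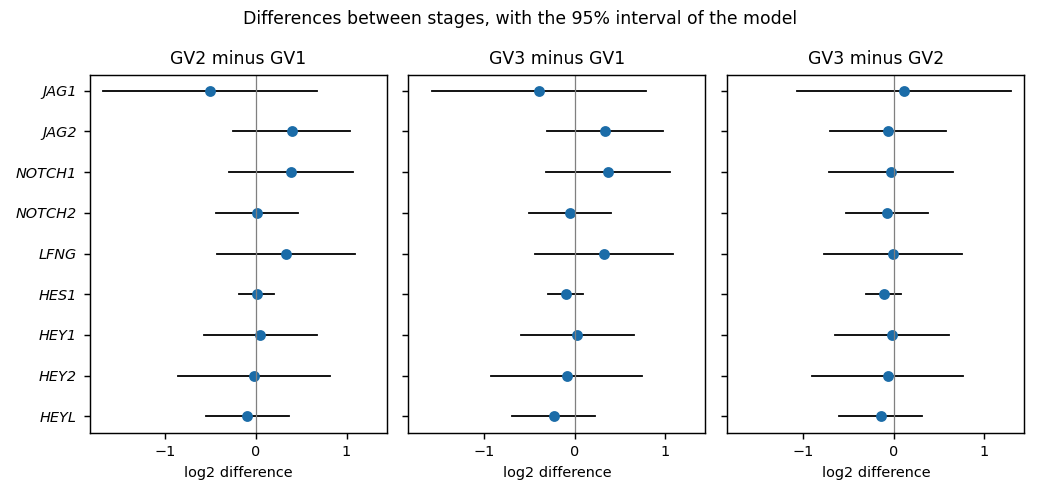
Log2 differences between the later stages (x axis) for the brightest probe of each gene (y axis), as the model estimate (points) with its 95% interval (lines). Every interval covers 0; that of HES1 is the narrowest, from -0.18 to 0.20 in GV2 minus GV1, and that of JAG1 the widest.

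Beyond the members, a list of 55 other genes of the pathway was read in the same fit. Of these, 42 had a kept probe, 8 had no probe under their symbol, among them NOTCH4, and 5 were too dim, among them the ligand DLL1. Called higher were 3 genes in GV1, 3 in GV2 and 4 in GV3, beside 3.85%, 4.67% and 4.36% of all genes. Called lower were 3, 1 and 2. In either direction these are 14.3%, 9.52% and 14.3% of the 42, beside 9.63%, 10.5% and 11.1% of all genes. The median log2 ratio of the list was 0.04, 0.02 and 0.04. With the replicate block 18 of the 42 were called in GV1 (10 higher, 8 lower), 10 in GV2 (9 higher, 1 lower) and 17 in GV3 (12 higher, 5 lower), beside 30.1%, 30.0% and 31.1% of all genes. No gene of the list was called between the later stages.

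The Groucho-type corepressors TLE1 and TLE3, which act with HES proteins to silence genes, were higher in all 3 later stages. TLE3 averaged 0.77, 0.81 and 1.14 (SE 0.097; limma adjusted p = 0.00146, 0.00105 and 0.000159), with 12 of 12 arrays above 0, from 0.62 to 1.45. Its 3 other kept probes did not pass. TLE1 averaged 0.70, 0.89 and 0.73 (SE 0.141; limma adjusted p = 0.0118, 0.00382 and 0.00861), from 0.36 to 1.21. TLE4, another corepressor of this family, passed in GV3 alone, at 0.38 (SE 0.111; limma adjusted p = 0.0463).

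POGLUT1, which adds glucose to the extracellular repeats of Notch receptors, was also higher throughout. Its mean log2 ratios were 0.98, 0.76 and 0.72 (SE 0.201; limma adjusted p = 0.0132, 0.0353 and 0.0411), and all 12 arrays lay between 0.33 and 1.49. Of the alternatives tried, POGLUT1 passed under 21 of 29, 15 of 28 and 12 of 28, TLE1 under 24 of 29, 27 of 28 and 25 of 28, TLE3 under 28 of 29, 27 of 28 and 27 of 28, and TLE4 under 9 of 28.

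Of the genes called lower, HES4, another repressor of the HES family, averaged -0.38, -0.32 and -0.35 (SE 0.092; limma adjusted p = 0.0269, 0.0487 and 0.0332), and 11 of 12 arrays lay below 0. Its Cy5 signal was not well above background on any GV1 or GV3 array. By mean channel levels GV0 was 1.27-fold higher than GV1 and 1.23-fold higher than GV3. These are estimates without an interval, not lower bounds. Under the alternatives the log2 ratio was as small as -0.177 in GV1 and -0.173 in GV3. DLK1, a Delta-like protein that can dampen Notch signalling, had a mean log2 ratio of -0.24 in GV1 (limma adjusted p = 0.0241), where it was not well above background on any array, and GV0 was above the negative controls on 7 of 12. MFNG, a fringe enzyme like LFNG, was at -0.20 in GV1 (limma adjusted p = 0.0383), with Cy5 above background on 2 of 4 arrays, and its sign turned with median spot signals, at 0.097. HES7, a HES repressor known from somite segmentation in the mouse, was at -0.18 in GV3 (limma adjusted p = 0.049). Its Cy5 signal lay above the negative controls on 2 of 4 GV3 arrays. These calls depended on the processing: HES4 passed under 14 of 28 alternatives in GV1, 6 of 27 in GV2 and 16 of 27 in GV3, DLK1 under 18 of 27, MFNG under 9 of 28 and HES7 under 7 of 27.

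The ligand DLL4 and the nuclear partner RBPJ did not pass. DLL4 averaged 0.77, 0.66 and 0.54 (SE 0.247), with limma adjusted p = 0.0692, 0.110 and 0.177, and it passed in all 3 with the replicate block, at adjusted p = 0.0105, 0.0188 and 0.0380, and in none with the area number as a random effect, at 0.0695, 0.107 and 0.173. Without GV1 replicate 1 its GV1 mean was 0.42 (adjusted p = 0.227 without the block). Without GV1 replicate 3 the block gave DLL4 an adjusted p of 0.0599 in GV1. RBPJ averaged 0.04, 0.06 and 0.34 (SE 0.427) and lay below 0 on 5 of 12 arrays, down to -1.16.

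**Figure D5:**
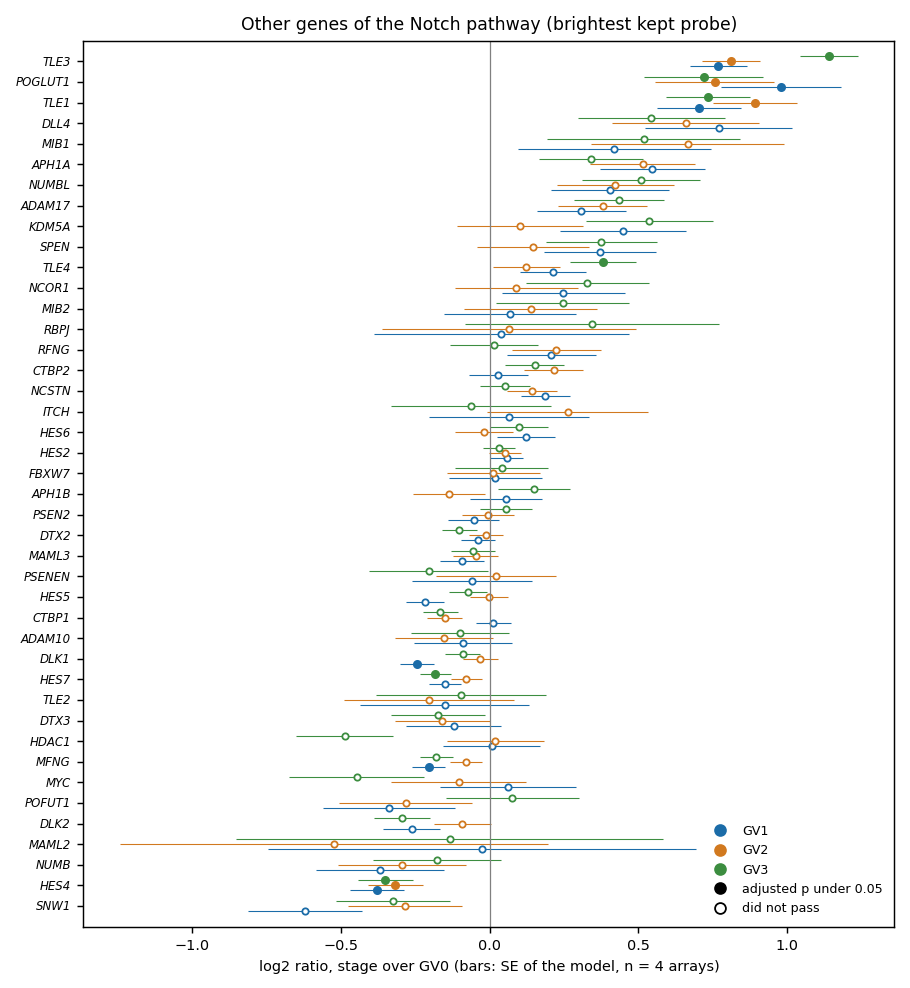
Log2 ratios of stage over GV0 (x axis) for the brightest kept probe of the 42 other pathway genes (y axis), with the model SE as bars and n = 4 arrays per stage. Filled points passed at an adjusted p under 0.05: TLE1, TLE3 and POGLUT1 on the right and HES4 on the left in all 3 stages, with TLE4, HES7, MFNG and DLK1 in 1 stage each.

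The genes whose 12 log ratios ran most like those of HES1 were SRP68 (Pearson r = 0.957), CA9 (r = 0.938) and FGD5 (r = 0.925). They followed its rise and fall between arrays but not its level. Their mean log2 ratios were 0.20, -0.25 and 0.40, against values below 0 on every array for HES1, and none was called. The points are 12 arrays that may share GV0 pools, and the likeness is a description.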

How the data were processed

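Each of 12 two-colour arrays gave foreground and background intensity values per spot, deposited as scanner output with a quality flag (other; 8 to 106 spots flagged per array). Per the file headers these are mean, median and background signals of each channel, and the headers name no normalization. The series matrix holds log2 ratios deposited by the authors, without a stated method. They matched, to rounding, median spot signals after loess without background correction (median absolute difference at most 0.000778), in the direction stage over GV0, with column medians of -0.0085 to -0.0022.

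Here, mean spot signals without flagged spots were background-corrected (normexp, offset 50) and loess-normalised within arrays, giving control spots weight 0. A probe was kept where a channel exceeded the mean + 2 SD of 153 negative control spots on at least 3 of 4 arrays of a stage. One limma model (3.58.1, R 4.3.3, statmod 1.5.0; 9 residual degrees of freedom) gave each stage a coefficient, with Benjamini-Hochberg adjustment over 35891 probes and a threshold of 0.05. A gene was read from its brightest kept probe. Channel levels were set by Aquantile after loess. The model code was also run on simulated data, as a check of the code and not of the differences reported. Symbols came from the platform annotation, updated through RefSeq (15229 symbols, 133 unmatched).

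Area numbers pair the arrays: deviations from the stage mean correlated at 0.493 to 0.736 between same-numbered arrays in all 12 pairs, and at most 0.067 otherwise. In Cy3, same-numbered arrays correlated at 0.990 to 0.998. The labels do not tie the pools to different animals. Without the replicate block, each p-value reflects variation among pools, which may be technical. The replicate block takes differences between areas out of the SE, so its calls against GV0 speak for these 4 areas only. The members and lists were chosen with earlier results of these data known. Named were all members, pathway genes that passed in any comparison, 4 further pathway genes (DLL1, DLL4, NOTCH4 and RBPJ), and the 3 genes most like each called member. The number of arrays limits precision. Alternatives covered the replicate block, spot signal, background, normalization, filter, probe summary, arrays fitted and left-out arrays.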

Additional observations from a re-analysis of the deposited data

Results flagged for a closer look

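Among 39 groups of 4 log ratios (13 kept probes in 3 stages), 2 held a value far from the other 3 by Dixon's criterion at the 95% level; chance gives about 1 in 20. HEY2 on GV2 replicate 3 was -0.908, while the other GV2 arrays lay between 0.321 and 0.419 (gap 0.926 of the range). The area 3 arrays of GV1 and GV3 were also the lowest of their stages for HEY2. A dim JAG2 probe, EMBV3_02982, was -0.134 on GV2 replicate 1, while the other GV2 arrays lay between 0.134 and 0.167 (gap 0.890 of the range). Neither probe passed in any comparison.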

How the results depend on the processing

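HES1 stayed below GV0 under all alternatives tried (29 in GV1, 28 in GV2 and 28 in GV3), from -0.50 to -0.25, -0.49 to -0.25 and -0.62 to -0.32, and passed in 25, 24 and 25 of them. HES1 did not pass with median spot signals, the series matrix values or only the 4 arrays of a stage (0 members called in each comparison with GV0 for all 3 settings), nor in GV1 and GV2 with normexp fitted on all spots, flagged ones included (0, 0 and 2 members; HEYL joined HES1 in GV3 at adjusted p = 0.028). The replicate block called 5 members in GV1 and 2 in GV3, and 4 in GV1 without GV1 replicate 3. Leaving out arrays gave 1 to 2 members in GV1 (LFNG joined without replicate 1), 1 in GV2 and GV3, and 0 between stages. An offset of 10 and the block without GV1 replicate 3 were chosen after seeing the data. The cause of these changes was not tested. Over all probes, 3957, 4300 and 4412 were called against GV0, with the replicate block 10746, 10827 and 10895, with median signals 279, 444 and 783, with normexp on all spots 165, 404 and 5316, with the series matrix 306, 509 and 758, and with 1 stage's arrays 0, 0 and 0. Leaving out arrays gave 1029 to 3900, 1213 to 3928 and 1426 to 4408.

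Of 54 member values, 30 changed sign under some alternative, none of them called. With median spot signals, NOTCH2 was -0.011 (GV1 against GV0), -0.016 (GV2 against GV0) and -0.005 (GV2 against GV1), HEY2 0.000 (GV3 against GV0), HEYL 0.066 (GV2 against GV1), NOTCH1 0.002 (GV3 against GV2), MFNG 0.097 (GV1 against GV0) and RBPJ -0.024 (GV2 against GV0). With the series matrix, NOTCH2 was -0.026 and -0.012 (GV1 and GV2 against GV0), HEYL 0.040 (GV2 against GV1), MFNG 0.089, RBPJ -0.004 and the second JAG1 probe -0.091 (GV2 against GV0). With median centring, HEY1 was -0.070, -0.030 and -0.033 against GV0, JAG2 0.052 in GV2, NOTCH1 0.131 and 0.089 in GV2 and GV3, and NOTCH2 0.296 in GV3. With normexp on all spots, HEY1 was -0.060 and HEYL 0.007 (GV1 against GV0), and NOTCH2 -0.010 and HES1 -0.026 (GV2 against GV1). Without background correction HES1 was -0.010 (GV2 against GV1). With the mean of all probes, JAG2 was 0.074 and NOTCH1 0.045 (GV3 against GV2). With the offset of 10, NOTCH2 was -0.013 (GV2 against GV1) and LFNG 0.010 (GV3 against GV2). With the block without GV1 replicate 3, NOTCH2 was -0.039 and HEY2 -0.089 (GV1 against GV0).

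Leaving out arrays turned these values. In GV1 against GV0 the range was -0.082 to 0.18 for HEY1, -0.083 to 0.219 for HEY2, -0.19 to 0.13 for HEYL, -0.13 to 0.18 for NOTCH2 and -0.32 to 0.44 for RBPJ. In GV2 against GV0 it was -0.11 to 0.33 for HEY1, -0.084 to 0.358 for HEY2, -0.053 to 0.148 for NOTCH2 and -0.41 to 0.40 for RBPJ. In GV3 against GV0 it was -0.023 to 0.237 for HEY1, -0.23 to 0.27 for HEY2, -0.40 to 0.029 for NOTCH1 and -0.094 to 0.083 for NOTCH2. In GV2 against GV1 it was -0.033 to 0.068 for HES1, -0.15 to 0.29 for HEY1, -0.18 to 0.30 for HEY2, -0.31 to 0.02 for HEYL, -0.901 to 0.047 for JAG1 and -0.12 to 0.19 for NOTCH2. In GV3 against GV1 it was -0.11 to 0.19 for HEY1, -0.29 to 0.21 for HEY2, -0.729 to 0.091 for JAG1 and -0.20 to 0.12 for NOTCH2. In GV3 against GV2 it was -0.29 to 0.21 for HEY1, -0.38 to 0.23 for HEY2, -0.15 to 0.51 for JAG1, -0.24 to 0.13 for JAG2, -0.26 to 0.20 for LFNG, -0.24 to 0.19 for NOTCH1 and -0.163 to 0.038 for NOTCH2. JAG1 and HEYL were too dim for the strictest filter. Signal close to the negative controls limits what JAG1, HEYL, HES4, HES7, MFNG and DLK1 can show.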
